A study of Mus musculus with 18 samples.

Results

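The epithelial-mesenchymal transition genes described here are 10 genes chosen by symbol: the transcription factors Snai1, Snai2, Twist1, Zeb1 and Zeb2, the cadherins Cdh1 and Cdh2, and the effectors Fn1, Vim and Cd44. They are 10 of the 19938 genes with a named probe set on the array, and each of the 10 was read by 1 probe set. RNA from mouse medulloblastomas, tumours of the cerebellum, had been hybridized to Affymetrix mouse Gene ST 1.0 arrays, 18 arrays in 5 groups. The groups were GFD-Smo;GFAP-cre (n = 4, GFD-Smo from here on), NG-Smo;Atoh1-CreER (n = 4, NG-Smo from here on), GFI-Ptch (n = 4), GFD-Ptch (n = 2) and NG-Ptch (n = 4). NG, GFD and GFI are tumour subtypes that the labels do not spell out. Ptch is the receptor that restrains Hedgehog signalling and Smo the transducer it restrains. The labels name neither the Ptch nor the Smo allele, and give no strain or age. GFAP-cre is driven by a promoter active in neural stem cells and astrocytes, and Atoh1-CreER is an inducible Cre driven by a promoter active in granule neuron progenitors. Since all GFD-Smo tumours carried one Cre and all NG-Smo tumours the other, subtype and Cre driver cannot be told apart in the Smo tumours. GFI-Ptch replicate 4 was a tumour said to have progressed from another one in a female NSG host, a mouse without functional lymphocytes, and is called the transplanted tumour below. Nothing in the labels ties replicates to separate animals, so the p-values below cover only the spread between these samples, which may be technical.

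In an epithelial-mesenchymal transition, cells lose E-cadherin junctions and gain mesenchymal adhesion, matrix and cytoskeletal proteins. Transcription factors of the Snail, Twist and Zeb families drive it, in part by binding E-box sequences in the Cdh1 promoter, and TGF-beta signalling is a well studied inducer. In the cerebellum the same genes have other uses: Zeb1 acts in granule neuron progenitors, Vim and Cd44 mark radial glia and astrocytes, Fn1 is made by blood vessels, and Zeb2 is expressed in microglia and oligodendrocyte lineage cells. The arrays measured whole tumours, so fewer cells of a type and less RNA per cell cannot be told apart.

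The first principal component of all genes held 31.2% of the variance. On it GFI-Ptch replicate 3 scored -23.6, near GFD-Ptch (-23.2 and -28.7), against -15.3 to -8.9 in the other GFI-Ptch arrays. On the second, which held 16.2%, 2 arrays lay apart from their group. The transplanted tumour scored 50.8 on the second, against -11.7 to -4.8 in the other GFI-Ptch arrays, and NG-Smo replicate 4 scored -13.9, against 3 to 14.1 in the other NG-Smo arrays. Over all genes GFI-Ptch replicates 1 to 3 had mean correlations of 0.983 to 0.985 with their own group and 0.984 to 0.988 with the others. Their own-group means include the transplanted tumour, whose mean correlation with its group was 0.9724 and which lowers them. The transplanted tumour also had a mean level of 9.57 over 12 skeletal muscle genes, against 7.08 to 7.85 in the other arrays. Of 13 arrays with a gender label, 3 had a level of Y-linked genes that went against it. The other 5 arrays, labelled ND, formed a level of their own where the gender label was a term below. NG-Ptch had 3 arrays labelled ND and 1 labelled F, and GFD-Ptch had 2 labelled M. That term therefore partly follows the groups and is not an adjustment for sex alone. Y-linked genes were high in 1 of 4 GFD-Smo, 2 of 4 NG-Smo, 1 of 4 GFI-Ptch, 2 of 2 GFD-Ptch and 0 of 4 NG-Ptch arrays. Between GFD-Ptch and NG-Ptch, subtype and Y-linked level therefore cannot be told apart. A Y-linked term there takes its effect from the other groups. Levels are log2 values as deposited, and the median over all genes and arrays was 8.21. Levels of different genes are not set against each other, because probe sets differ in their response.

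Of the 10 genes, 1 passed the test in any comparison of groups: Cd44 was 1.78-fold higher in GFD-Smo tumours than in GFD-Ptch tumours, a comparison in which 15.6% of all genes passed. Fn1 passed an F-test of any difference among the 5 groups, with GFD-Smo highest and GFI-Ptch lowest. The classical transcription factors and both cadherins passed in no comparison, and their intervals were narrow for Snai1, Snai2, Twist1, Zeb1, Cdh1 and Cdh2, none of which reached a log2 difference of 0.5 in either direction between any pair of groups compared. Snai2, Twist1 and Cdh1 were dim: every group mean lay below the median of 8.21. The mean of Snai2, 6.01, lay below the lower quartile of every array (6.21 to 6.38). For these dim genes a narrow interval does not show that expression was steady. Group means lay 0.05 (Twist1), 0.09 (Cdh1), 0.14 (Snai1), 0.14 (Cdh2), 0.21 (Zeb1) and 0.22 (Snai2) apart from highest to lowest, against 0.57 (Vim), 0.64 (Zeb2), 0.77 (Fn1) and 0.83 (Cd44). Tests were limma's moderated tests on all 18 arrays, two-sided, with Benjamini-Hochberg adjustment across the 19938 genes; passing, or being called, means an adjusted p under 0.05. For genes of the lists below, rose and fell mean called higher and called lower. Comparisons that name the same group share its arrays.

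**Figure D1:**
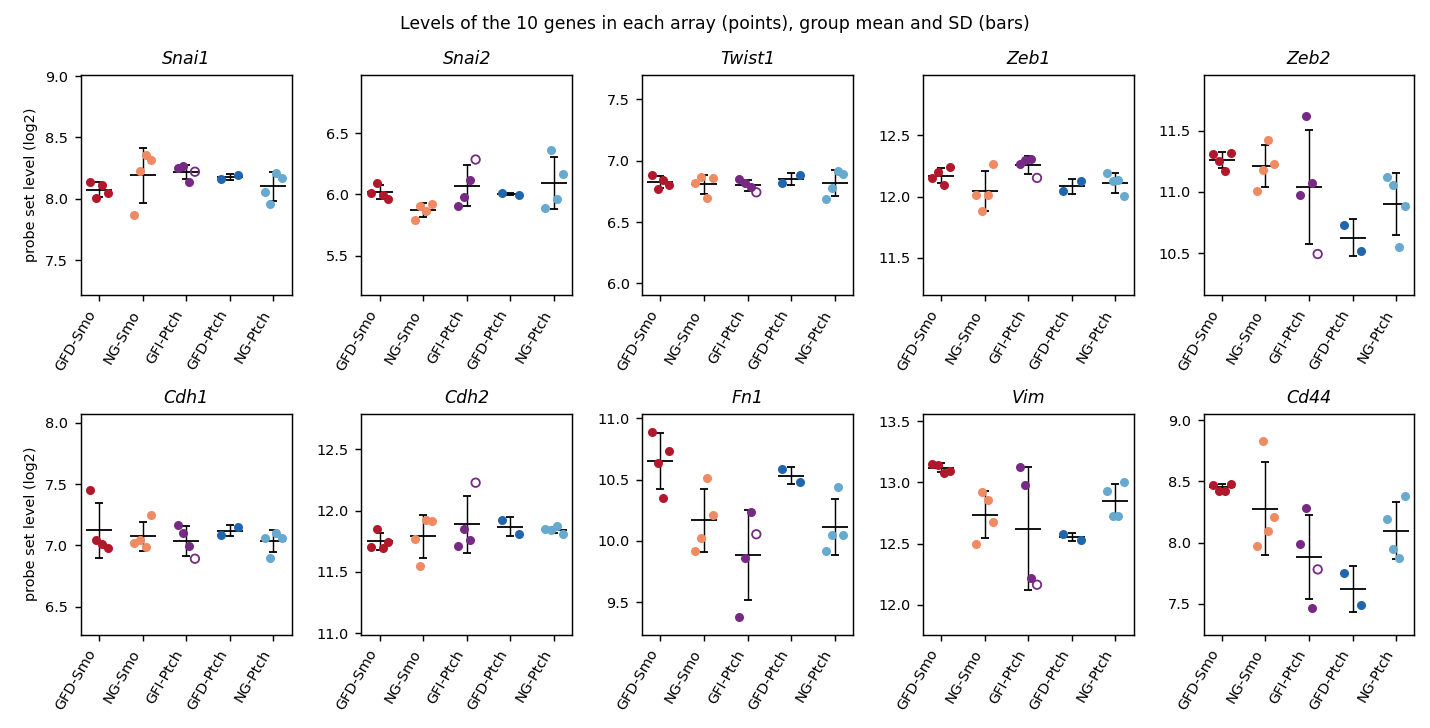
Log2 level of each gene in every array (points), by group on the x axis, with the group mean and SD as bars; the open point is the transplanted tumour and every panel spans the same range of log2 units. Twist1 group means span 0.05, while Cd44 group means span 0.83, with GFD-Smo highest and GFD-Ptch lowest.

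Promoter sequence is shown for 3 genes, out of 5 whose windows are reported here. Snai1 is shown because its window alone among those reported held an E-box of the kind that Snail and Zeb proteins bind. Vim and Cd44 are shown because their levels deviated together between arrays. Each window is the 250 bases before the RefSeq transcription start in build GRCm38.p6, on the gene's strand, with any E-box in capitals. The windows lie on chr2:167537945-167538194 (plus strand) for Snai1, chr2:13574061-13574310 (plus strand) for Vim and chr2:102901666-102901915 (minus strand) for Cd44.
Snai1: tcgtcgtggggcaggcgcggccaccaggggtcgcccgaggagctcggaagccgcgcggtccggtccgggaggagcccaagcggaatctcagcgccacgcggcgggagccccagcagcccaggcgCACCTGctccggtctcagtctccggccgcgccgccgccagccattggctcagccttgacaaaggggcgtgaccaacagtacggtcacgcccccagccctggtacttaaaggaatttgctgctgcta
Vim: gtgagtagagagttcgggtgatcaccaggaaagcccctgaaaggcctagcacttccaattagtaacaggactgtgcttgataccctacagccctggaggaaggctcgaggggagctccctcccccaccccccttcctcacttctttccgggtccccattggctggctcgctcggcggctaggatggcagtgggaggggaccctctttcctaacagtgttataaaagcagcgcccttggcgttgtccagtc
Cd44: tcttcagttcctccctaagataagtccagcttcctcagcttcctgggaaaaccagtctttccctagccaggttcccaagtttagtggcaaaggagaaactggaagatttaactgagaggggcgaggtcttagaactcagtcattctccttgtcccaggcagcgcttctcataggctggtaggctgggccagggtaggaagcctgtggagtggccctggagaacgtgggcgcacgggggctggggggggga
The E-box searched was CACCTG on either strand, which reads CAGGTG on the other. The Snai1 window held 1, starting 126 bases before the start. The E-box was found in 1 of 8 windows of 5 of the genes (Snai1, Twist1, Zeb2, Vim and Cd44), against 17.2% of 32851 windows of all genes. Of the 8 windows 4 were of Zeb2, and some of these overlapped each other. No window of Snai2, Zeb1, Cdh1, Cdh2 or Fn1 was searched, so whether these genes hold the E-box was not tested. The share of 1 of 8 therefore does not describe the whole gene set, and no test set it against the 17.2%. A match describes the letters in the window and nothing else.

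Snai1 encodes the founding zinc-finger repressor of the Snail family. Its level was 8.14, 8.01, 8.11 and 8.04 in GFD-Smo tumours, 7.87, 8.23, 8.36 and 8.31 in NG-Smo tumours, 8.25, 8.26, 8.14 and 8.22 in GFI-Ptch tumours, 8.16 and 8.20 in GFD-Ptch tumours and 8.06, 7.96, 8.21 and 8.17 in NG-Ptch tumours. The 4 GFD-Smo arrays lay below both GFD-Ptch arrays, and all groups next to each other in the order of means overlapped. The GFD-Smo minus GFD-Ptch difference was -0.10 (SE 0.11, 95% interval -0.33 to 0.13, adjusted p = 0.51).

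Snai2, its relative with a role in neural crest, was at 6.01, 6.10, 5.99 and 5.96 in GFD-Smo tumours, 5.79, 5.91, 5.86 and 5.92 in NG-Smo tumours, 5.91, 5.98, 6.12 and 6.28 in GFI-Ptch tumours, 6.01 and 5.99 in GFD-Ptch tumours and 5.89, 6.36, 5.96 and 6.17 in NG-Ptch tumours. NG-Smo was the lowest group, and its 4 arrays lay below every GFD-Smo and GFD-Ptch array. The NG-Smo minus NG-Ptch difference was -0.22 (SE 0.09, 95% interval -0.42 to -0.02), the only one of Snai2 whose interval left out 0, and its adjusted p was 0.39.

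Twist1, a basic helix-loop-helix factor of cranial mesenchyme, had the flattest profile, at a dim level. It lay at 6.77 to 6.88 in GFD-Smo tumours, 6.70 to 6.87 in NG-Smo tumours, 6.74 to 6.85 in GFI-Ptch tumours, 6.82 and 6.89 in GFD-Ptch tumours and 6.69 to 6.91 in NG-Ptch tumours. Every pair of groups overlapped. Its SD within groups was 0.071, below that of most genes (12.7th percentile), and 5.84% of its variance lay between groups, against 36.2% for the median gene. The difference largest in size was that of GFI-Ptch minus GFD-Ptch, -0.05 (SE 0.07, 95% interval -0.20 to 0.09, adjusted p = 0.80), and its sign turned under quantile normalization.

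Zeb1, a zinc-finger homeodomain repressor, was at 12.15, 12.20, 12.09 and 12.24 in GFD-Smo tumours, 12.01, 11.88, 12.01 and 12.27 in NG-Smo tumours, 12.26, 12.30, 12.31 and 12.15 in GFI-Ptch tumours, 12.04 and 12.13 in GFD-Ptch tumours and 12.20, 12.13, 12.13 and 12.002 in NG-Ptch tumours. GFI-Ptch was the highest group, with its 4 arrays above both GFD-Ptch arrays, and its difference from GFD-Ptch was 0.17 (SE 0.09, 95% interval -0.02 to 0.36, adjusted p = 0.54). The highest NG-Smo value belonged to replicate 4, which lay apart on the second component. Without it and the transplanted tumour, GFD-Smo minus NG-Smo was 0.20 (adjusted p = 0.036 by limma), against 0.13 (SE 0.07, 95% interval -0.03 to 0.28, adjusted p = 0.44) with all arrays. That setting, added after seeing the data, was the only 1 of 29 in which this difference passed. Without NG-Smo replicate 4 alone the difference was also 0.20 and did not pass.

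Zeb2, its relative, was at 11.31, 11.25, 11.17 and 11.31 in GFD-Smo tumours, 11.01, 11.18, 11.42 and 11.22 in NG-Smo tumours, 10.98, 11.62, 11.07 and 10.49 in GFI-Ptch tumours, 10.73 and 10.52 in GFD-Ptch tumours and 11.12, 11.05, 10.55 and 10.88 in NG-Ptch tumours. The GFD-Smo arrays lay above both GFD-Ptch arrays, and the GFI-Ptch arrays spread over the whole range, with replicate 2 highest and the transplanted tumour lowest of all 18. The mean was 11.26 ± 0.07 in GFD-Smo and 10.63 ± 0.15 in GFD-Ptch tumours (SD, n = 4 and 2). Their difference of 0.64 (SE 0.22, 95% interval 0.17 to 1.10) had an adjusted p of 0.061. It passed in 6 of 29 alternative settings, among them without GFI-Ptch replicate 2 (adjusted p = 0.022) and without the transplanted tumour (0.019), and was 0.40 with the gender label as a term (adjusted p = 0.23).

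Cdh1 encodes E-cadherin, the epithelial cadherin lost in the transition. It was at 7.45, 7.04, 7.01 and 6.98 in GFD-Smo tumours, 7.02, 7.04, 6.99 and 7.25 in NG-Smo tumours, 7.16, 7.10, 6.99 and 6.89 in GFI-Ptch tumours, 7.09 and 7.15 in GFD-Ptch tumours and 7.06, 6.90, 7.10 and 7.06 in NG-Ptch tumours. 1 array, GFD-Smo replicate 1, lay above all others, and the groups overlapped throughout. The Cdh1 difference largest in size was 0.09, for GFD-Ptch minus NG-Ptch (SE 0.12, 95% interval -0.17 to 0.34, adjusted p = 0.71).

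Cdh2 encodes N-cadherin, the cadherin of neural and mesenchymal cells. It was at 11.70, 11.85, 11.70 and 11.75 in GFD-Smo tumours, 11.77, 11.55, 11.92 and 11.92 in NG-Smo tumours, 11.71, 11.85, 11.76 and 12.23 in GFI-Ptch tumours, 11.92 and 11.81 in GFD-Ptch tumours and 11.85, 11.84, 11.87 and 11.81 in NG-Ptch tumours. The transplanted tumour was the highest array and the groups overlapped. The difference of GFD-Smo minus GFD-Ptch was the largest in size, -0.12 (SE 0.12, 95% interval -0.38 to 0.14, adjusted p = 0.50).

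Fn1 encodes fibronectin, a matrix glycoprotein bound by integrins. Its level was 10.89, 10.63, 10.35 and 10.74 in GFD-Smo tumours, 9.92, 10.02, 10.51 and 10.21 in NG-Smo tumours, 9.38, 9.86, 10.23 and 10.05 in GFI-Ptch tumours, 10.58 and 10.48 in GFD-Ptch tumours and 9.92, 10.05, 10.44 and 10.04 in NG-Ptch tumours. Both GFD groups were on top, and within the Ptch tumours the GFD-Ptch arrays lay above every GFI-Ptch and NG-Ptch array. The means were 10.65 ± 0.23 in GFD-Smo, 10.17 ± 0.26 in NG-Smo, 9.88 ± 0.37 in GFI-Ptch, 10.53 ± 0.07 in GFD-Ptch and 10.11 ± 0.23 in NG-Ptch tumours (SD, n = 4, 4, 4, 2 and 4). The F-test over the 5 groups gave an adjusted p of 0.037, in a test that called 13.7% of all genes. The call was lost when any of 9 arrays was left out in turn (GFD-Smo replicates 1, 2 and 4, GFI-Ptch replicate 2, both GFD-Ptch arrays and NG-Ptch replicates 1, 2 and 5), with adjusted p-values of 0.0527 to 0.104. Pair by pair the differences missed it: 0.49 for GFD-Smo minus NG-Smo (SE 0.18, 95% interval 0.11 to 0.86, adjusted p = 0.14), -0.65 for GFI-Ptch minus GFD-Ptch (SE 0.22, 95% interval -1.11 to -0.19, adjusted p = 0.36) and 0.42 for GFD-Ptch minus NG-Ptch (SE 0.22, 95% interval -0.04 to 0.88, adjusted p = 0.32). The last was 0.26 with the Y-linked level as a term and 0.59 with the gender label.

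Vim encodes vimentin, the intermediate filament of mesenchymal and immature glial cells. Its level was 13.15, 13.14, 13.08 and 13.10 in GFD-Smo tumours, 12.49, 12.92, 12.85 and 12.67 in NG-Smo tumours, 13.13, 12.98, 12.22 and 12.17 in GFI-Ptch tumours, 12.58 and 12.53 in GFD-Ptch tumours and 12.93, 12.73, 12.72 and 13.001 in NG-Ptch tumours. The GFD-Smo arrays lay above every array of NG-Smo, GFD-Ptch and NG-Ptch, while both GFD-Ptch arrays lay below every NG-Ptch array. Within GFI-Ptch, replicates 1 and 2 were near the GFD-Smo level and replicates 3 and 4 were the lowest of all 18 arrays. GFD minus NG was 0.38 in Smo tumours (SE 0.18, 95% interval 0.01 to 0.76, adjusted p = 0.30) and -0.29 in Ptch tumours (SE 0.22, 95% interval -0.75 to 0.17, adjusted p = 0.47). The difference between these, 0.68 (SE 0.28, 95% interval 0.09 to 1.27), did not pass (adjusted p = 0.19). GFD-Smo minus GFD-Ptch was 0.57 (SE 0.22, 95% interval 0.11 to 1.02, adjusted p = 0.085). With the gender label as a term the sign in Ptch tumours turned, to 0.11, and the difference between Smo and Ptch tumours was 0.28 and GFD-Smo minus GFD-Ptch 0.23. With the Y-linked level as a term these 3 values were -0.10, 0.44 and 0.43.

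Cd44 encodes a receptor for hyaluronan found on astrocytes, mesenchymal and many immune cells. Its level was 8.47, 8.43, 8.42 and 8.48 in GFD-Smo tumours, 7.97, 8.83, 8.09 and 8.21 in NG-Smo tumours, 7.99, 8.28, 7.47 and 7.78 in GFI-Ptch tumours, 7.75 and 7.49 in GFD-Ptch tumours and 8.19, 7.95, 7.88 and 8.38 in NG-Ptch tumours. The 4 GFD-Smo arrays were within 0.06 of each other and above both GFD-Ptch arrays, and NG-Smo replicate 2 was the highest of all. The mean was 8.45 ± 0.03 in GFD-Smo and 7.62 ± 0.19 in GFD-Ptch tumours (SD, n = 4 and 2), a difference of 0.83 (SE 0.22, 95% interval 0.36 to 1.30, adjusted p = 0.021 by limma). This was 1 of 10 genes called in a comparison that called 15.6% of all genes, with 8.5% of all genes called higher. The call rested on the 2 GFD-Ptch arrays, and it was lost without replicate 1 of them (0.96, adjusted p = 0.055) and without replicate 2 (0.70, adjusted p = 0.22). The difference was 0.60 with the gender label as a term (adjusted p = 0.081) and 0.57 with the Y-linked level as a term (adjusted p = 0.084).

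Of the other Cd44 differences, GFD-Ptch minus NG-Ptch was -0.48 (SE 0.22, 95% interval -0.95 to -0.006, adjusted p = 0.29), with both GFD-Ptch arrays below all 4 NG-Ptch arrays. GFD-Smo minus NG-Smo was 0.17 (SE 0.18, 95% interval -0.21 to 0.56, adjusted p = 0.81). GFD minus NG in Smo tumours exceeded that in Ptch tumours by 0.65 (SE 0.29, 95% interval 0.04 to 1.26, adjusted p = 0.22). With the Y-linked level as a term GFD-Ptch minus NG-Ptch was -0.12 and the excess in Smo tumours 0.21, and with the gender label they were -0.25 and 0.42.

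**Figure D2:**
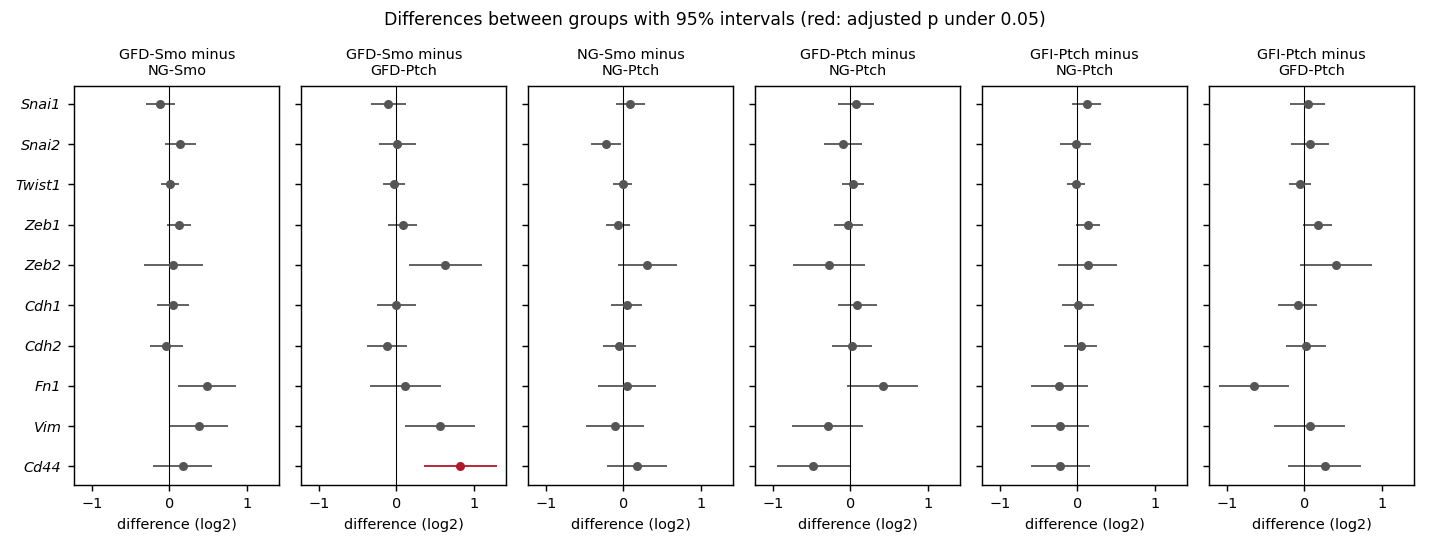
Log2 difference (points) with its 95% interval (lines) for each gene, 1 panel per pair of groups, each on the same scale. Only the Cd44 difference of 0.83 in GFD-Smo minus GFD-Ptch is red, which marks an adjusted p under 0.05.

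Comparison by comparison, the 10 genes were called no more often than genes in general. In GFD-Smo minus NG-Smo, 0 of 10 were called, against 5.31% of all genes, and 2 of 10 had an unadjusted p under 0.05, against 15.9%. In NG-Smo minus NG-Ptch, 0 of 10 were called, against 1.04%, and 1 of 10 had an unadjusted p under 0.05, against 10.6%. In the Ptch tumours 0 of 10 were called in GFI-Ptch minus GFD-Ptch, where limma called 1 gene of the array (0.00502%), in GFD-Ptch minus NG-Ptch, where it called 2 (0.01%), and in GFI-Ptch minus NG-Ptch, where it called 0 (0%). An unadjusted p under 0.05 was seen for 1, 1 and 0 of the 10 in these 3 comparisons, against 9.79%, 16.9% and 8.53% of all genes. The test of whether GFD minus NG differed between Smo and Ptch tumours called 0 of 10, against 3.81% of all genes, with 2 of 10 at an unadjusted p under 0.05, against 20.1%. In GFD-Smo minus GFD-Ptch, 3 of 10 had an unadjusted p under 0.05, against 33.3%.

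Groups with no overlap between arrays were counted as well. In GFD-Smo minus GFD-Ptch, 4 of 10 genes had none (Snai1, Zeb2, Vim and Cd44), against 57.1% of all genes. The counts were 2 of 10 in GFD-Smo minus NG-Smo (Snai2 and Vim, against 12.6%), 2 of 10 in GFI-Ptch minus GFD-Ptch (Zeb1 and Fn1, against 16.5%) and 3 of 10 in GFD-Ptch minus NG-Ptch (Fn1, Vim and Cd44, against 34.6%). There were 0 in NG-Smo minus NG-Ptch (against 5.65%) and 0 in GFI-Ptch minus NG-Ptch (against 4.86%).

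The 4 genes with the largest spread between groups also varied most between arrays of 1 group. The SD within groups was 0.272 for Zeb2, 0.266 for Fn1, 0.267 for Vim and 0.275 for Cd44, at the 88.9th to 89.9th percentile of all genes, and 0.132 for the median gene. The share of variance between groups was 61.2% for Fn1 and 56.1% for Cd44, above the 36.2% of the median gene, and 43.1% for Zeb2 and 42.3% for Vim. As a description over 18 arrays, deviations from the group mean correlated at 0.70 between Vim and Cd44 and at 0.56 between Zeb2 and Vim. The 2 genes share the array and its tissue sample in each such point.

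The genes whose levels were most like that of Cd44 over the 18 arrays were Wwc2 (Pearson r = 0.911), Slc43a3 (r = 0.885) and Ncald (r = 0.878), with correlations of 0.798, 0.791 and 0.774 once group means were taken off. For Fn1 they were Eng (r = 0.887), a TGF-beta co-receptor of endothelium, Abca3 (r = 0.857) and Kdr (r = 0.832), a VEGF receptor of endothelium, with 0.791, 0.683 and 0.605 once group means were taken off. These are descriptions of arrays that share their groups, with no test.

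Markers of other cell types moved in the same comparisons. The mean level over 12 astrocyte genes was 11.15 to 11.22 in GFD-Smo, 9.77 to 10.05 in NG-Smo, 8.67 to 10.48 in GFI-Ptch, 8.83 to 8.93 in GFD-Ptch and 9.77 to 9.98 in NG-Ptch arrays. In GFD-Smo minus GFD-Ptch the median change over the list was 2.40. There 11 of these 12 were called higher and 0 lower, where 15.6% of all genes were called. The exception was Slc1a2, which was not called, though all 12 lay above 0. Within GFI-Ptch, the astrocyte mean was 10.48 and 10.03 in replicates 1 and 2, where Vim was 13.13 and 12.98, and 9.24 and 8.67 in replicates 3 and 4, where Vim was 12.22 and 12.17. Other groups went the other way. Within NG-Smo, the highest astrocyte mean (10.05, replicate 1) went with the lowest Vim (12.49). The lowest mean (9.77, replicate 2) went with the highest Vim (12.92). Within NG-Ptch, the highest mean (9.98, replicate 4) went with the lowest Vim (12.72). The lowest mean there (9.775, replicate 5) went with the highest Vim (13.001). The part of astrocyte RNA in the Cd44, Vim and Zeb2 values was not tested.

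Of 14 microglia and macrophage genes, 5 were called higher and 0 lower in GFD-Smo minus GFD-Ptch, where 15.6% of all genes were called. Called or not, 10 lay above 0 and 4 below (median over the list 0.34). The list means were 9.26 to 9.48 in GFD-Smo, 9.74 to 9.86 in NG-Smo, 8.96 to 9.73 in GFI-Ptch, 8.77 to 9.13 in GFD-Ptch and 9.20 to 9.64 in NG-Ptch arrays. The part of microglial RNA in the Zeb2 and Cd44 values was not tested. Of 10 endothelial genes 2 were called there, against 15.6% of all genes: Kdr rose and Vwf fell. In GFD-Smo minus NG-Smo 1 of the 10 was called, against 5.31% of all genes: Kdr rose (0.84, SE 0.16, adjusted p = 0.0063 by limma). The endothelial mean was 8.36 to 8.69 in GFD-Smo, 8.002 to 8.61 in NG-Smo, 7.66 to 8.15 in GFI-Ptch, 8.36 to 8.42 in GFD-Ptch and 7.81 to 8.28 in NG-Ptch arrays, so both groups with the highest Fn1 means had every array at or above 8.36. The fibroblast and pericyte mean was 9.06 to 9.33 in GFD-Smo, 8.83 to 9.20 in NG-Smo, 8.76 to 8.98 in GFI-Ptch, 8.92 to 9.07 in GFD-Ptch and 8.75 to 9.05 in NG-Ptch arrays. The part of vessel RNA in the Fn1 values was not tested. Granule neuron progenitor genes, the markers of the tumour cells, had means of 11.49 to 11.63 in GFD-Smo, 11.41 to 11.67 in NG-Smo, 11.39 to 11.82 in GFI-Ptch, 11.78 to 11.85 in GFD-Ptch and 11.80 to 11.88 in NG-Ptch arrays.

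**Figure D3:**
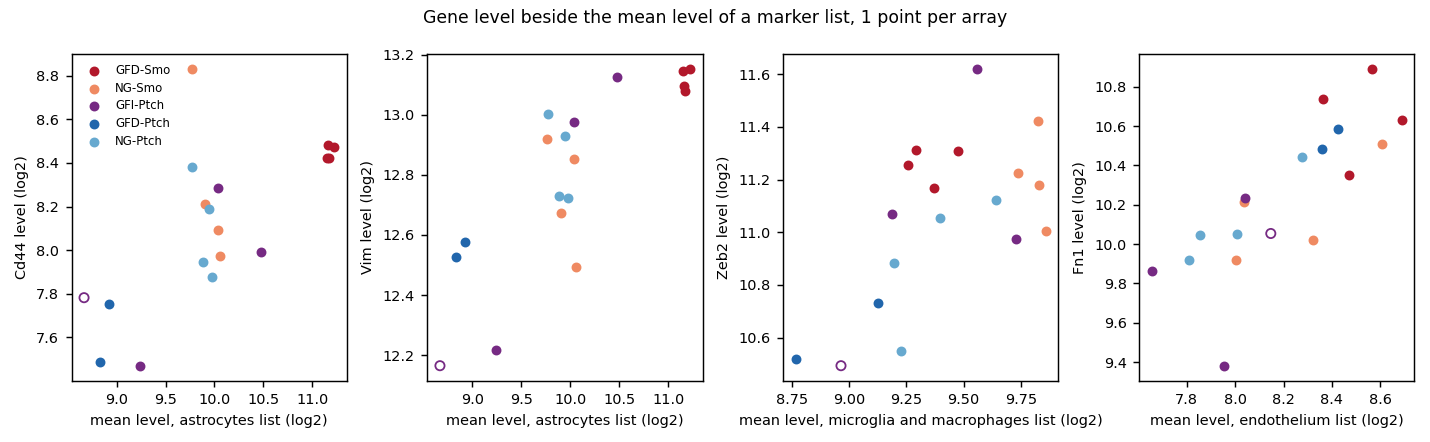
Log2 level of 4 of the genes (y axes) against the mean log2 level of a marker list (x axes), 1 point per array, coloured by group; the open point is the transplanted tumour. GFD-Smo arrays have astrocyte means of 11.15 to 11.22 and lie to the right of all others in the Cd44 and Vim panels.

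Beside the 10 genes, 83 genes in 7 lists cover the pathway: other regulators, TGF-beta signalling, other cadherins and catenins, fibronectin receptors and matrix, Cd44 ligands and linkers, other intermediate filaments and epithelial genes. Of these 79 were measured. In GFD-Smo minus GFD-Ptch 14 rose and 2 fell, 20.3% of the 79 against 15.6% of all genes, with a median change of -0.01 over the lists, against -0.06 over all genes. In GFD-Smo minus NG-Smo 6 rose and 0 fell (7.59% against 5.31%), and in NG-Smo minus NG-Ptch 1 rose and 1 fell (2.53% against 1.04%). None passed in the 3 Ptch comparisons, in which limma called at most 2 genes of the array.

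The list counts here and in the next paragraph stand beside 15.6% of all genes called. In GFD-Smo minus GFD-Ptch, 1 of 14 other regulators rose, Prrx1, a homeodomain factor of mesenchyme (0.70, SE 0.12, adjusted p = 0.0015). Of 13 TGF-beta genes, the type I receptor Tgfbr1 (1.06, SE 0.30, adjusted p = 0.026) and the signal transducer Smad3 (0.99, SE 0.26, adjusted p = 0.019) rose, and Tgfbi, a matrix protein induced by the pathway, fell by 1.08 (SE 0.29, adjusted p = 0.022). Of 9 cadherins and catenins 3 rose and 1 fell. Cdh11, a cadherin of mesenchymal cells, had a mean of 10.23 ± 0.13 in GFD-Smo, 9.83 ± 0.36 in NG-Smo, 9.05 ± 0.41 in GFI-Ptch, 8.18 ± 0.59 in GFD-Ptch and 9.19 ± 0.29 in NG-Ptch tumours (SD, n = 4, 4, 4, 2 and 4), and was 4.16-fold higher in GFD-Smo than in GFD-Ptch (2.06, SE 0.28, adjusted p = 0.00021). Ctnna1, an alpha-catenin of epithelial and many other cells, and Jup, plakoglobin, rose by 0.61 and 0.66. Ctnna2, the neuronal alpha-catenin, fell by 1.24.

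Of 15 fibronectin receptor and matrix genes 4 rose and 0 fell in the same comparison. The list's largest change was that of Tnc, a matrix protein of glia and tumour stroma (2.31, SE 0.56, adjusted p = 0.012), and Postn, another stromal matrix protein, had means of 8.37 ± 0.15 in GFD-Smo and 6.92 ± 0.12 in GFD-Ptch tumours (SD, n = 4 and 2; 1.45, SE 0.22, adjusted p = 0.00044 by limma). Sparc rose by 1.06, and Itgb1, the beta subunit of fibronectin-binding integrins, by 0.40. Of 8 measured Cd44 ligand and linker genes 0 passed, with 1 at an unadjusted p under 0.05. Of 8 other intermediate filament genes 3 rose: Gfap, the filament of astrocytes (1.19, SE 0.32, adjusted p = 0.020), and the neurofilament genes Nefl (2.02) and Nefm (0.57). Gfap is also one of the astrocyte markers above, and Nefl and Nefm are also on a list of 10 differentiated neuron genes, of which these 2 rose, Rbfox3 fell by 0.59 (SE 0.17, adjusted p = 0.028) and 7 lay below 0 (median over the list -0.10). Of 12 epithelial genes 1 rose, Tjp1, a tight junction scaffold that neural cells and vessels also make (0.43, SE 0.09, adjusted p = 0.0036).

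13 of these 16 calls were lost without GFD-Ptch replicate 2 (adjusted p 0.070 to 0.34) and 7 without GFD-Ptch replicate 1 (0.061 to 0.144), though all kept their sign. Prrx1, Cdh11 and Postn remained called in both cases. With the gender label as a term 8 of the 16 were lost.

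In GFD-Smo minus NG-Smo, where 5.31% of all genes were called, 4 of 15 fibronectin receptor and matrix genes rose. They were Postn (0.70, SE 0.18, adjusted p = 0.029) and the fibrillar collagen genes Col1a2 (0.57, SE 0.10, adjusted p = 0.0020), Col1a1 (0.46, SE 0.10, adjusted p = 0.013) and Col3a1 (0.38, SE 0.10, adjusted p = 0.035). The 3 collagen genes are also on the fibroblast and pericyte list, of which 4 of 12 rose. Gfap rose by 1.11 (adjusted p = 0.019) and Tjp1 by 0.31 (adjusted p = 0.018), where 7 of 12 astrocyte genes rose and 4 of 14 microglia and macrophage genes fell. Of these 6 calls, that of Col1a2 remained in all 29 alternative settings. Postn, Col3a1 and Gfap were lost without GFD-Smo replicate 1 (adjusted p 0.063 to 0.124), Postn, Col3a1 and Tjp1 without GFD-Smo replicate 2 (0.059 to 0.101), Postn and Col3a1 without GFD-Smo replicate 3 (0.054 to 0.092) or NG-Smo replicate 2 (0.070 to 0.071), Gfap and Tjp1 without GFD-Smo replicate 4 (0.053 to 0.056) or NG-Smo replicate 1 (0.053 to 0.055), and Postn without NG-Smo replicate 4 (0.072). Col1a1 and Col3a1 were lost with only the arrays compared (0.059 to 0.103), Postn and Col3a1 under quantile normalization (0.057 to 0.058), and Col3a1 under median centring (0.058) and with the gender label as a term (0.0535). In NG-Smo minus NG-Ptch, Postn rose (0.79, SE 0.18, adjusted p = 0.046) and Sox9, a factor of neural crest and glia, fell by 0.65 (SE 0.15, adjusted p = 0.0495 by limma). Both calls were lost in most alternatives, for example without NG-Ptch replicate 4 (adjusted p 0.139 to 0.158).

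The test of whether GFD minus NG differed between Smo and Ptch tumours called 6 of the 79 genes, 7.59% against 3.81% of all genes, and each of the 6 differences was positive. They were Prrx1 (0.69), Smad3 (1.46), Cdh11 (1.42), Gfap (1.88), Nefl (2.93) and Nefm (0.93), with adjusted p-values of 0.020 to 0.047. All 6 were lost without GFD-Ptch replicate 2 (adjusted p 0.090 to 0.295) and with the Y-linked level as a term (0.065 to 0.144).

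**Figure D4:**
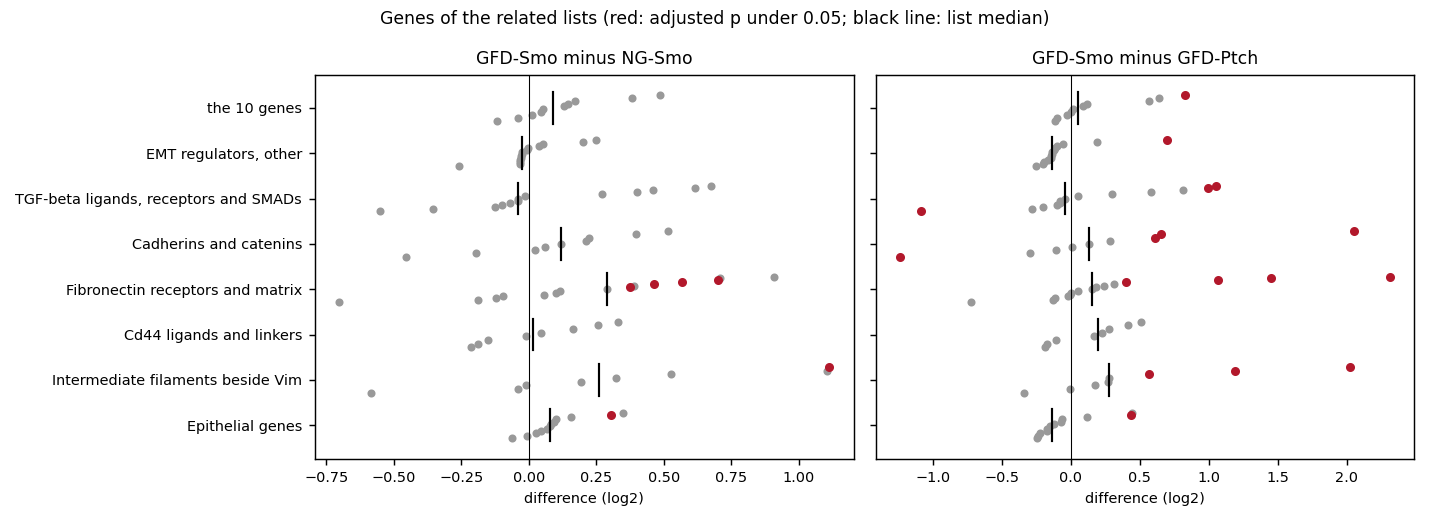
Log2 difference of every measured gene of the 7 related lists and of the 10 genes, in GFD-Smo minus NG-Smo (left) and GFD-Smo minus GFD-Ptch (right), on separate scales; red points passed at an adjusted p under 0.05 and black lines are list medians. In the right panel 14 genes of the 7 lists are red above 0 and 2 below.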

How the data were processed

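The deposited table gives log2 values for 35556 probe sets on 18 arrays, 1 array per labelled sample, made by the authors with Partek 6.6, per the submitters' processing notes. Background correction, summary of probes and scaling between arrays are not given in the sources used here. Array medians were 7.736 to 7.868, no value was missing, and 0 columns were of no known sample. Precision is limited by the number of arrays.

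In the platform annotation 21789 probe sets had 1 gene symbol, 1621 several and 12146 none. For the 999 genes with several probe sets the one with the highest mean was used, which left 19938 genes. One limma fit (version 3.58.1, R 4.3.3) to all arrays gave each group a mean and each gene a shared spread, with 13 residual degrees of freedom and 2.448 from the prior, for 7 contrasts and an F-test over 5 groups. The fit was tested on simulated data. Tables and plots were made with Python 3.11.15. Promoter windows are RefSeq's (GRCm38.p6).

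The 10 genes, the related lists and the marker lists were chosen with earlier results of these data known. All 10 genes are named, and of each related list up to 4 genes called per comparison. Genes most like a called one are the 3 with the highest Pearson correlation. Olfactory and vomeronasal receptors, immunoglobulin and T-cell receptor segments, predicted loci, Y-linked genes and Xist were left out of that search.

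The alternatives were a filter on dim genes, quantile normalization, median centring, the mean over a gene's probe sets, array weights, a trended robust prior, the gender label or the Y-linked level as a term, the replicate number as a block, only the arrays of the groups compared, and each array left out in turn. Leaving out both arrays that lay apart from their group on the second principal component was added after seeing the data. The gender label entered as F, M and ND. Replicate numbers did not pair the samples.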

Additional observations from a re-analysis of the deposited data

Results flagged for a closer look

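Among the 10 genes, 1 value lay far from the other arrays of its group: Cdh1 in GFD-Smo replicate 1 was 7.45, against 6.98 to 7.04 in the other 3. This was 1 of 40 gene and group pairs examined, and chance alone flags about 1 in 20. Of 80 pairs of related genes and groups 5 stood out in the same way. Cdh11 was 8.76 in NG-Ptch replicate 5 (others 9.28 to 9.37), Col3a1 was 7.91 in NG-Smo replicate 2 (others 8.31 to 8.38), Ctnna1 was 10.32 in GFD-Smo replicate 2 (others 10.24 to 10.26), Jup was 10.46 in GFD-Smo replicate 4 (others 10.07 to 10.11) and Sox9 was 10.08 in the transplanted tumour (others 10.63 to 10.71).

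GFD minus NG differed between Smo and Ptch tumours by the test of that difference for Prrx1 (0.69), Smad3 (1.46), Cdh11 (1.42), Gfap (1.88), Nefl (2.93) and Nefm (0.93). All 6 calls were lost without GFD-Ptch replicate 2, 1 of only 2 arrays of its group, and with the Y-linked level as a term.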

How the results depend on the processing

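Of 2286 values of the 10 genes under 29 alternative settings, 2226 kept their side of the threshold or moved little, 28 passed only in the alternative, 15 lost a call, 17 moved by more than the spread and 0 called values changed sign. The Cd44 call in GFD-Smo minus GFD-Ptch remained in 25 of 29 settings and that of Fn1 in the F-test in 17 of 28. In GFD-Smo minus GFD-Ptch, the number of the 10 genes called was 1 with all arrays, 2 of the 7 kept by the filter on dim genes (22% of genes kept were called), 3 with array weights (29.6% of all genes), 3 with only the arrays compared (33.6%), 3 with both apart arrays left out (29.9%), and 0 with the gender label (12.6%) or the Y-linked level (11.9%) as a term. Leaving out 1 array at a time gave 0 to 3. In GFD-Smo minus NG-Smo it was 0, and 1 with only the arrays compared (Vim, adjusted p = 0.046 by limma) or with both apart arrays left out (Zeb1). For the difference between Smo and Ptch tumours it was 0, and 1 with only the arrays compared (Vim, adjusted p = 0.014 by limma). For the F-test it was 1, and 2 of 7 with the filter (20.9% of genes kept), 5 with array weights (39.7% of all genes), 3 with both apart arrays left out (36.6%) and 0 to 2 with 1 array left out. The causes were not tested.

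With the replicate block, the Cd44 difference was 0.96 (adjusted p = 0.014 by limma), and in the F-test Fn1 was lost (adjusted p = 0.053) while Cd44 passed (0.049). Arrays with the same number did not deviate together (correlations -0.31 to 0.187 over 29 pairs, median -0.03), so the block was not used. Of all genes, GFD-Smo minus GFD-Ptch called 3110, and 997 to 6809 over the settings, GFD-Smo minus NG-Smo 1058 (643 to 1740), NG-Smo minus NG-Ptch 208 (34 to 1169), GFI-Ptch minus GFD-Ptch 1 (0 to 64), GFD-Ptch minus NG-Ptch 2 (0 to 689), GFI-Ptch minus NG-Ptch 0 (0 to 180), the difference between models 759 (159 to 1484) and the F-test 2739 (1719 to 7923). Calls in GFD-Smo minus GFD-Ptch were 54.5% higher as deposited, 45.2% after quantile normalization and 20.4% after median centring, in GFD-Smo minus NG-Smo 53% and 41% after median centring, and in the difference between models 63.1% and 35.3%. The filter kept 10700 genes and 7 of the 10, without Snai2, Twist1 and Cdh1, and the deposited values give no measure of background.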

Other observations

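Outside the rule for naming genes, and chosen after the values were seen, the gene most like Vim over the 18 arrays was Sox2, a factor of neural stem cells and radial glia (Pearson r = 0.902, and 0.925 once group means were taken off). The genes most like Cdh1 were Stac, Igfbp6 and Osr1 (r = 0.9, 0.859 and 0.858). Cdh1 was highest in GFD-Smo replicate 1, the array flagged above, and how far its correlations rest on that array was not tested. All these correlations are descriptions of arrays that share tissue samples, with no test.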
